A study of Rattus norvegicus with 9 samples.

Results

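The enzymes and regulators of sterol and fatty acid synthesis were followed in rat NRK-49F cells, an established line of kidney interstitial fibroblasts. The set held 31 genes, chosen by symbol out of 22050 in the deposited table: 22 of cholesterol synthesis, its regulation and transport, and 9 of fatty acid synthesis. Each symbol matched 1 row, and all 31 passed the filter on low counts that left 11473 tested genes. The series compared 3 groups of wild-type cells with 3 libraries each. These were cells given TGF-β1 and the compound YWCH-4A, cells given TGF-β1 and the compound YEXX-2A, and cells given TGF-β1 and vehicle. All 9 libraries thus came from cells exposed to TGF-β1, which turns fibroblasts into matrix-producing cells, and the labels give it for 48 h. The labels name both compounds by code alone and state neither their dose nor their time, so it is not known whether the doses match. They state biological replicates without saying whether these were separate cultures, so p-values measure only the spread between these libraries.

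Cells build cholesterol from acetyl-CoA through HMG-CoA, mevalonate, farnesyl diphosphate, squalene and lanosterol, and they build fatty acids from acetyl-CoA through malonyl-CoA. Both routes are controlled by SREBP transcription factors, which sit in the endoplasmic reticulum as precursors bound to SCAP. When sterols are scarce SCAP escorts them to the Golgi for cleavage, and when sterols are plentiful INSIG proteins hold the complex back. SREBP-2, from Srebf2, mainly drives cholesterol genes, and SREBP-1, from Srebf1, mainly drives fatty acid genes. Their activity is set largely by this cleavage, which transcript counts do not measure.

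Total estimated counts ran from 13675880 to 21923706 per library. Vehicle replicate 2 stood apart. The biological coefficient of variation, the spread between libraries beyond counting error, was 3.66% among YWCH-4A libraries, 7.32% among YEXX-2A libraries and 16.7% among vehicle libraries, against 4.68% among vehicle libraries without replicate 2. Results against vehicle are therefore also given without that library where it changes a call or moves a called value by over 1.5 times. Of the fibroblast markers, Vim, Pdgfra, Pdgfrb, Col1a1, Col3a1 and S100a4 were present and Thy1 was under 1 CPM (counts scaled to the TMM-adjusted library size). The kidney epithelial markers Epcam, Krt18 and Umod were at 0 in every library, while Krt8 averaged 924 CPM with YWCH-4A, 1528 CPM with YEXX-2A and 1903 CPM with vehicle. Cdh1, Cdh16 and Lrp2 of the same list were under 1 CPM in every library. Whether the 0 of Krt18 came from the annotation used for counting was not tested. Summed endothelial markers reached at most 1.32 CPM and leukocyte markers at most 0.455 CPM. A lower level here could mean less RNA per cell or fewer cells with that RNA, which bulk libraries cannot tell apart.

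Promoter windows from RefSeq (build GRCr8, 250 bases before to 50 bases after the annotated start) were held for 24 of the 31 members. The windows of the members with the largest difference between the compounds in each group are shown, since their transcripts carry the main contrast described below. They were chosen after the values were seen. Capitals mark each CCAAT box (CCAAT or its reverse complement ATTGG), where the partner factor NF-Y binds, and each match with at most 1 mismatch to the sterol regulatory element TCACNCCAC on either strand. Idi1 lies at chr17:66547475-66547774 on the minus strand, Hmgcs1 at chr2:53382054-53382353 on the plus strand and Cyp51 at chr4:30991443-30991742 on the plus strand. Hsd17b7 lies at chr13:84722705-84723004 on the minus strand and Insig1 at chr4:8057720-8058019 on the minus strand. Scd lies at chr1:253231682-253231981 on the minus strand and Fads2 at chr1:216171984-216172283 on the minus strand.
Idi1: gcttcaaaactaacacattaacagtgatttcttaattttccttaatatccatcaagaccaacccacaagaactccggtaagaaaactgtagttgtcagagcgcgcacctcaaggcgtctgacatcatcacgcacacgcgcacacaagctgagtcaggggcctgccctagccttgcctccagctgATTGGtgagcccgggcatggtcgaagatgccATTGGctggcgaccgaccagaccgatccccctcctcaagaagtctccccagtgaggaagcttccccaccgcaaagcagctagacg
Hmgcs1: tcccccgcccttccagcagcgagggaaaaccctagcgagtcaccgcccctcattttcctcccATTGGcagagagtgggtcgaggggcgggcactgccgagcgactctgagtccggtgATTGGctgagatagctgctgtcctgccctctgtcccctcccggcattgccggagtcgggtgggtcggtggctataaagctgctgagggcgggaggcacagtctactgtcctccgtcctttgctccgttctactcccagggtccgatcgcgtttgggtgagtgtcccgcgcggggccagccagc
Cyp51: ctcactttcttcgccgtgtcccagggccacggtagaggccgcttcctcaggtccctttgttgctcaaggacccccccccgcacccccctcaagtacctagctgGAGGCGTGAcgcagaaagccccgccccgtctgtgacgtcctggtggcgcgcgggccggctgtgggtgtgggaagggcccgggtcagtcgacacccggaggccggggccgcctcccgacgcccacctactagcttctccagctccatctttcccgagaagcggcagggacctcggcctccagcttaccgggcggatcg
Hsd17b7: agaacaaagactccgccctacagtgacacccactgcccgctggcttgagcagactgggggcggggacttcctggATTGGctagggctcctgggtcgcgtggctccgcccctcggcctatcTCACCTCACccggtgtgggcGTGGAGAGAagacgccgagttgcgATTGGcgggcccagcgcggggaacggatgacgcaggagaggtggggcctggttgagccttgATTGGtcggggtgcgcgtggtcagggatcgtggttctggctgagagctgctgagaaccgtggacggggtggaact
Insig1: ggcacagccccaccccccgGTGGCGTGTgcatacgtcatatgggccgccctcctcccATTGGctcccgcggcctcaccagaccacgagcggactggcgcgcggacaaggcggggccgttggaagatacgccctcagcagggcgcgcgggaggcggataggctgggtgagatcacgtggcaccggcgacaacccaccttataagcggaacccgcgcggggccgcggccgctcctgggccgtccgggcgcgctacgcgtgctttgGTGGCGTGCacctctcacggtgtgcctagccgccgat
Scd: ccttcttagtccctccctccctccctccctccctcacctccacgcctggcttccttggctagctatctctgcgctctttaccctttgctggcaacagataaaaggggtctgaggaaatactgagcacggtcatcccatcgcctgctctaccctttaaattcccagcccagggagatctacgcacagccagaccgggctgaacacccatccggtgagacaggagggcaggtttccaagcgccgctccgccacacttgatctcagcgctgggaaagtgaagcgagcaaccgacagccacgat
Fads2: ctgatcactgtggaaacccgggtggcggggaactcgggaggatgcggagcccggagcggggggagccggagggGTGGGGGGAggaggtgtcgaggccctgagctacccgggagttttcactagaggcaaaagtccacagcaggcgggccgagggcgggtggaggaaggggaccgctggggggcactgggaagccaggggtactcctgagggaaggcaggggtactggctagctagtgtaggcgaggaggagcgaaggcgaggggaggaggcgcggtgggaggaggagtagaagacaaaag

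In these windows Idi1 had a pair of CCAAT boxes, starting 66 and 35 bases before the annotated start, and Hmgcs1 had a pair starting 188 and 133 bases before it. Hsd17b7 held 3 CCAAT boxes and a pair of near matches to the sterol element. Insig1 held 1 CCAAT box and a pair of near matches, and Cyp51 and Fads2 held 1 near match each and no CCAAT box. The Scd window held neither. Over the 24 members, 18 (75.0%) had a CCAAT box, against 37.5% of 33469 RefSeq windows and 37.6% of the 9736 windows of tested genes. The exact sterol element was in none of the 24, against 1.12% of all windows and 1.07% of those of tested genes. Near matches were in 12 of 24, against 23.7% and 25.1%. The E-box CACGTG was in 3 of 24 (12.5%), against 6.42% and 9.26%. The GC box GGGCGG was in 21 of 24 (87.5%), against 33.1% and 63.5%. Each motif was searched on both strands and counted separately where letters overlapped. Members were counted by gene, with a motif in any window of the gene, and the shares for comparison by window. The 24 members had 25 windows, Srebf1 having more than 1, with its near match in only 1 of them. A match describes letters only.

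Levels per length were read from FPKM (fragments scaled to transcript length and to depth). The most abundant member was Fdps (ENSRNOG00000043377), which makes farnesyl diphosphate, at 242 ± 1.16 FPKM with YWCH-4A, 369.6 ± 15.9 FPKM with YEXX-2A and 346 ± 21.1 FPKM with vehicle (SD, n = 3 each). Cyp51 (ENSRNOG00000007234), the lanosterol demethylase, was at 100.01 ± 1.53 FPKM with YWCH-4A, 275 ± 7.78 FPKM with YEXX-2A and 134 ± 28.6 FPKM with vehicle. Fasn, the fatty acid synthase, was at 116 ± 5.52 FPKM with YWCH-4A, 122 ± 9.24 FPKM with YEXX-2A and 89.1 ± 10.5 FPKM with vehicle. Hsd17b7 was low, at 1.40 ± 0.106 FPKM with YWCH-4A, 3.05 ± 0.173 FPKM with YEXX-2A and 1.76 ± 0.485 FPKM with vehicle. Elovl6 was at 1.51 ± 0.413 FPKM with YWCH-4A, 2.00 ± 0.531 FPKM with YEXX-2A and 1.15 ± 0.746 FPKM with vehicle. With the members ranked by mean FPKM, the library ranges of neighbours overlapped in 12 of 30 pairs with YWCH-4A, 15 with YEXX-2A and 21 with vehicle, so much of the order is not resolved. Lss FPKM values were unreliable, since the length they imply differed 3.35-fold between libraries, against at most 1.09-fold for the other members. Changes below are therefore given in CPM.

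**Figure D1:**
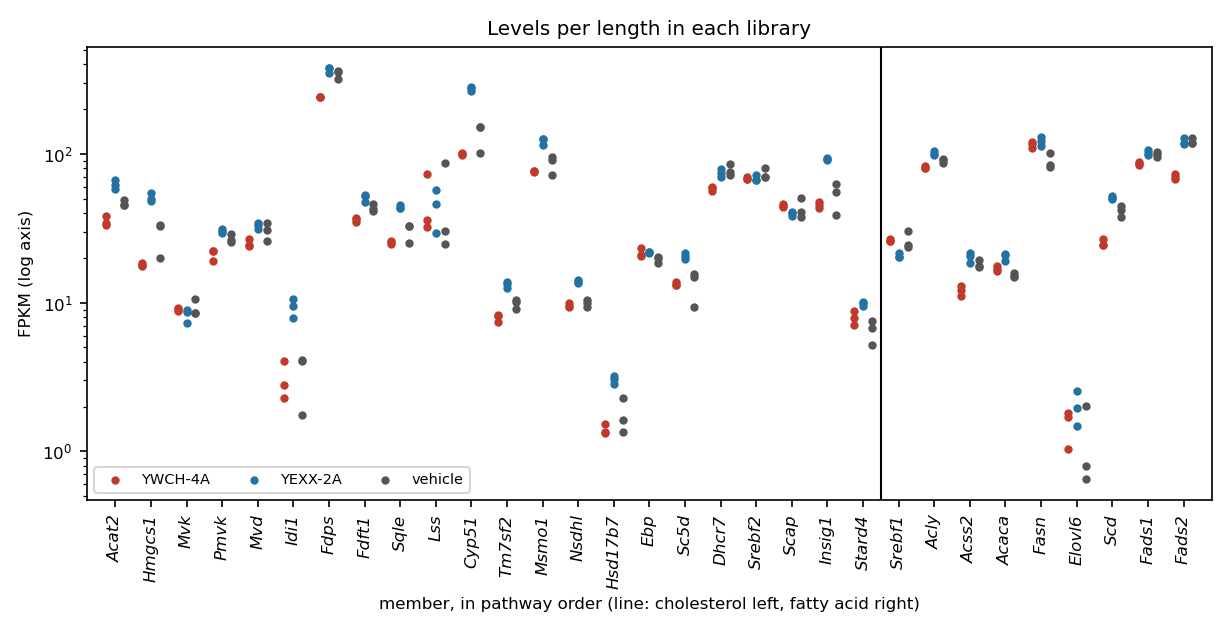
FPKM of each member in each library, on a log axis, with the members in pathway order; each point is a library, coloured by group (YWCH-4A, YEXX-2A, vehicle). Fdps is the highest member in all 3 groups, Hsd17b7 and Elovl6 lie lowest, and the points of Lss scatter within each group.

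The median member of cholesterol synthesis was low in every YWCH-4A library and high in every YEXX-2A library. Relative to the vehicle mean, the median log2 ratio of the 22 members was -0.43, -0.37 and -0.37 in the YWCH-4A libraries, 0.33, 0.26 and 0.38 in the YEXX-2A libraries and 0.02, 0.02 and -0.07 in the vehicle libraries. For the 9 fatty acid members the medians were -0.30, -0.36 and -0.33 with YWCH-4A, 0.09, 0.04 and 0.17 with YEXX-2A and -0.08, 0.12 and -0.07 with vehicle. Over all tested genes the library medians lay between -0.01 and 0.04. Vehicle replicate 2 had 11 cholesterol members above and 9 below both other vehicle libraries, and 7 of 9 fatty acid members above both. Its CPM was 0.46 times the mean of the other vehicle libraries for Idi1, 0.65 times for Hmgcs1, 0.66 times for Sc5d and 0.72 times for Cyp51. It was 1.37 times that mean for Scap, 1.35 times for Srebf1, 1.33 times for Mvk and 1.31 times for Fasn.

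**Figure D2:**
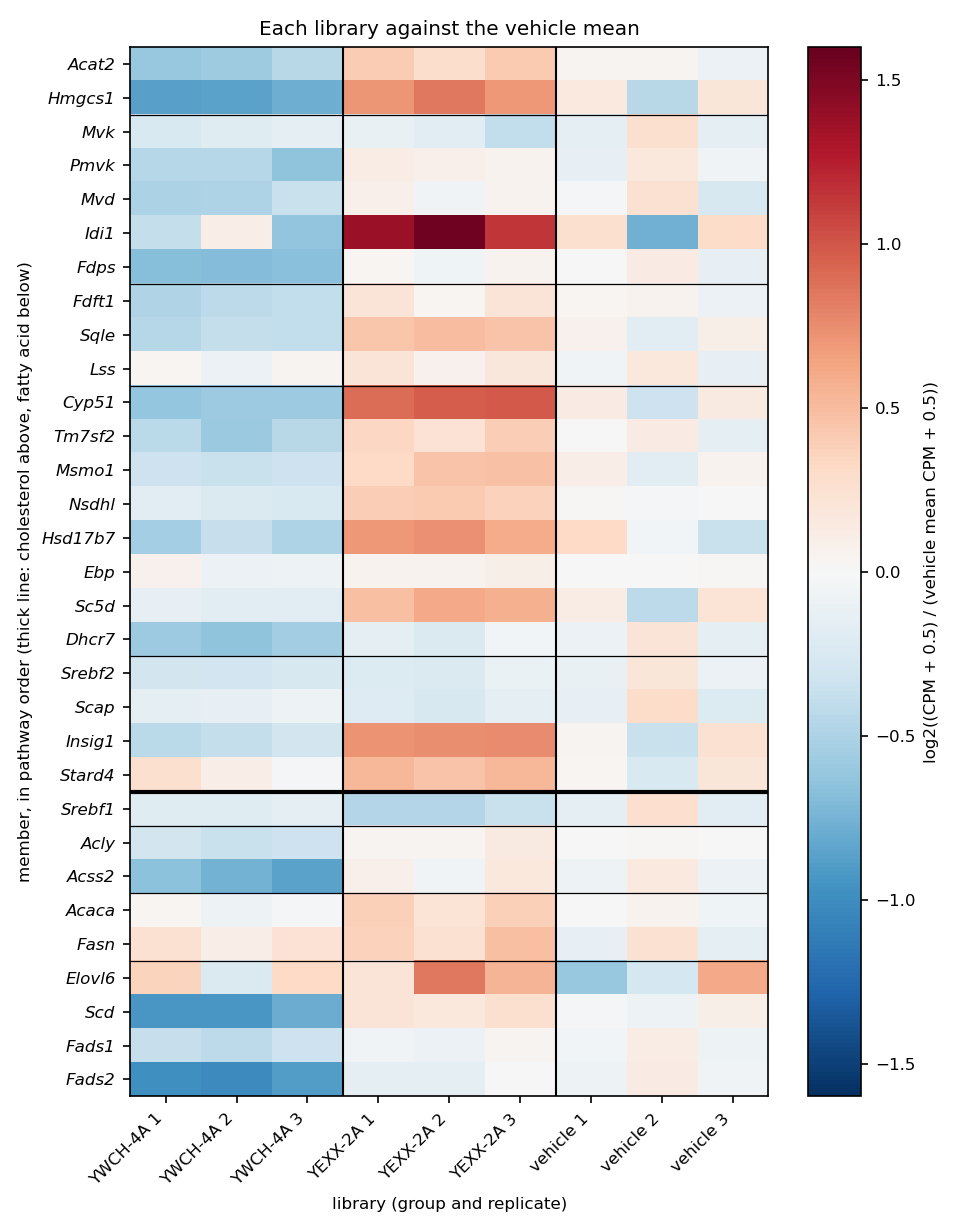
Log2 ratio of each member's CPM (plus 0.5) in each library to its vehicle mean, with members in pathway order and libraries from YWCH-4A through YEXX-2A to vehicle. Blue fills most of the YWCH-4A columns and red the YEXX-2A columns for Hmgcs1, Idi1, Cyp51 and Insig1, and vehicle replicate 2 differs from vehicle replicates 1 and 3 in both directions.

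With YWCH-4A against vehicle, 15 of 22 cholesterol members and 5 of 9 fatty acid members fell and none rose, at an adjusted p under 0.05 ("called"). The test was edgeR's quasi-likelihood test with Benjamini-Hochberg adjustment over all tested genes. Over those genes 30.6% were called, 15.7% higher and 14.9% lower, and their median log2 fold change was 0.03. It was -0.39 for the cholesterol members and -0.33 for the fatty acid members. All 3 YWCH-4A libraries lay below all 3 vehicle libraries for 20 of 31 members and above them for none, against 21% of tested genes lying below and 24.9% above. Leaving out vehicle replicate 2, 16 cholesterol members fell and none rose, and 5 fatty acid members fell and 1, Fasn, rose. The same fit called 4588 of 11640 tested genes, 2367 higher and 2221 lower. With limma on log2 FPKM 8 cholesterol members were called, the falls of Mvd, Sqle, Msmo1, Nsdhl, Hsd17b7, Srebf2 and Insig1 missing the threshold. With a pseudocount of 1 that fit called 4700 of 11473 tested genes, 3670 higher and 1030 lower. The median log2 fold change of all tested genes was then 0.18. In the same fit (pseudocount 1) the log2 fold change was -0.34 for Pmvk, -0.25 for Fdft1, -0.29 for Tm7sf2, -0.15 for Acly and -0.19 for Fads1, all still called.

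With YEXX-2A against vehicle, 12 of 22 cholesterol members rose and none fell, while 3 fatty acid members rose and 1 fell. Over all tested genes 36.1% were called, 17.6% higher and 18.5% lower, and their median log2 fold change was 0.01. It was 0.35 for the cholesterol members and 0.08 for the fatty acid members. All 3 YEXX-2A libraries lay above all 3 vehicle libraries for 16 of 31 members and below them for 1, against 25.3% of tested genes lying above and 26.3% below. When vehicle replicate 2 was left out, 14 cholesterol members rose and 4 fatty acid members were called. The same fit called 4083 of 11640 tested genes, 2034 higher and 2049 lower. Values not called with YEXX-2A moved too: without vehicle replicate 2 the log2 fold change was -0.03 for Dhcr7, -0.04 for Fads2, 0.15 for Acss2, 0.18 for Pmvk and 0.17 for Mvd. A library score was taken from these same values, as the main axis of spread within groups. It was -0.3, 51.3 and -6.3 in vehicle, -18.3, -25.8 and -5.6 in YEXX-2A and 1.4, -2.4 and 6.0 in YWCH-4A libraries. Since it differs between groups, it can absorb part of a group difference. With this score as covariate, Hmgcs1 (0.44), Idi1 (0.82), Sc5d (0.27), Stard4 (0.34) and Srebf1 (-0.17) were called with smaller changes and Fasn with a larger one (0.61). That fit called 16 cholesterol members higher, adding Mvd, Fdps, Fdft1 and Lss, and 985 of 11473 genes higher. Both comparisons share the vehicle libraries, so a low or high vehicle library moves both sets of values.

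The calls with both compounds were set side by side, as a description of comparisons that share the vehicle libraries. Of the cholesterol members, Acat2, Hmgcs1, Sqle, Cyp51, Tm7sf2, Msmo1, Nsdhl, Hsd17b7 and Insig1 were called lower with YWCH-4A and higher with YEXX-2A. Pmvk, Mvd, Fdps, Fdft1, Dhcr7 and Srebf2 were called lower with YWCH-4A and not called with YEXX-2A. Idi1, Sc5d and Stard4 were called higher with YEXX-2A and not called with YWCH-4A, and Mvk, Lss, Ebp and Scap were called in neither. Of the fatty acid members, Scd was called lower with YWCH-4A and higher with YEXX-2A. Acly, Acss2, Fads1 and Fads2 were called lower with YWCH-4A alone. With YEXX-2A alone Acaca and Fasn were called higher and Srebf1 lower, and Elovl6 was called in neither. The share of all tested genes with opposite calls was not counted.

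**Figure D3:**
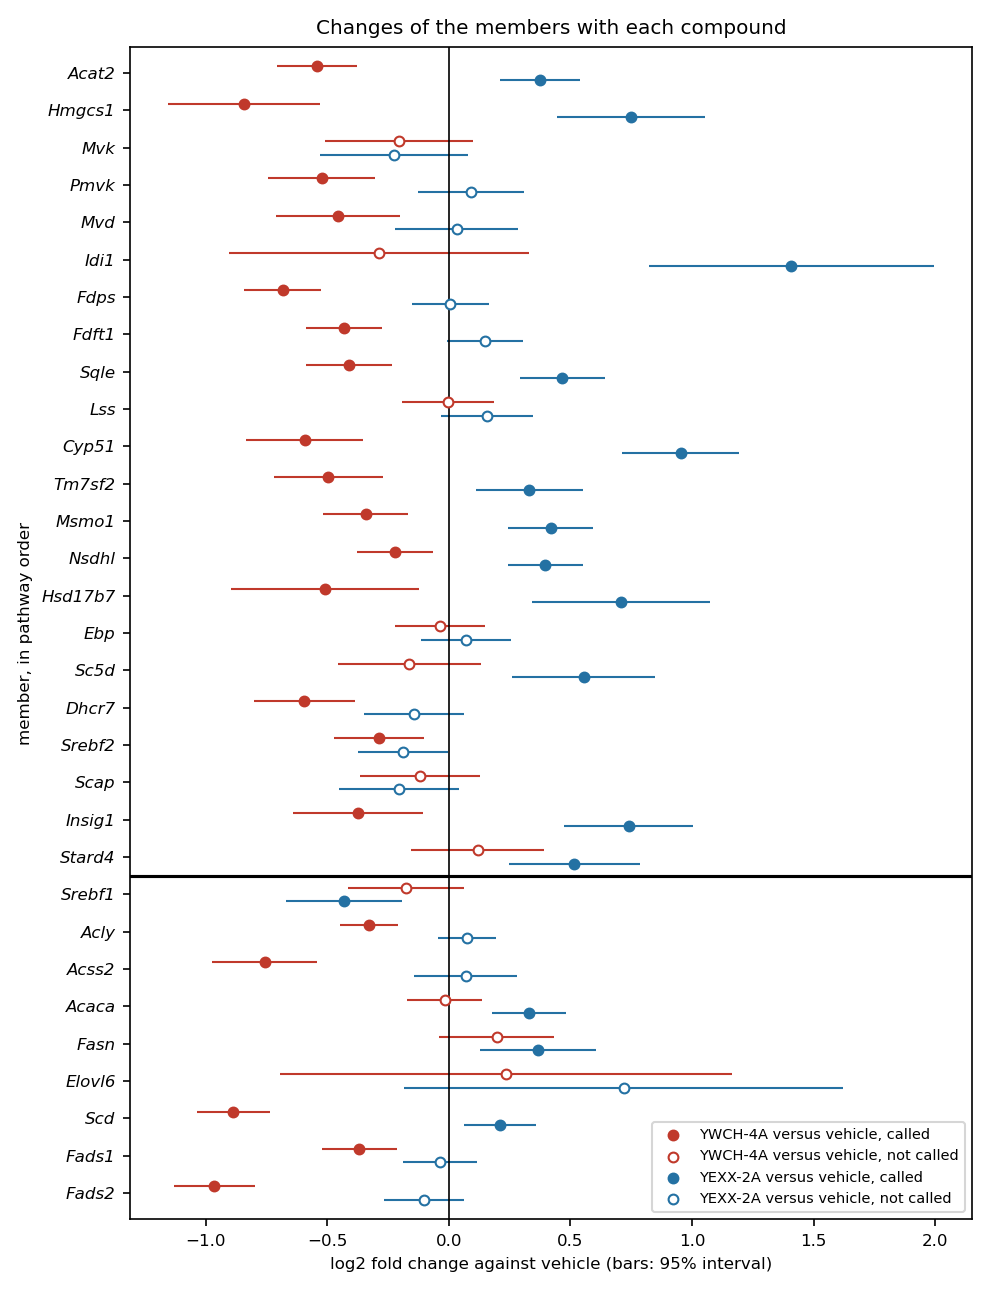
Log2 fold change of each member against vehicle with its 95% interval, YWCH-4A drawn above YEXX-2A for each gene; filled points were called and open points were not, and the line parts cholesterol members (above) from fatty acid members (below). Every called YWCH-4A value is below 0, and every called YEXX-2A value but that of Srebf1 is above 0.

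At the entry of the cholesterol route both members moved in opposite directions with the compounds. Acat2 had 51.6, 52.8 and 57.5 CPM in YWCH-4A libraries, 105, 95.3 and 105 CPM in YEXX-2A libraries and 80.8, 81.2 and 73.6 CPM in vehicle libraries. Acat2 joins a pair of acetyl-CoA molecules, and its 3 groups did not overlap, with YWCH-4A lowest and YEXX-2A highest. It fell with YWCH-4A (log2 fold change -0.54, SE 0.08, adjusted p = 0.000308) and rose with YEXX-2A (log2 fold change 0.37, SE 0.07, adjusted p = 0.00751). Hmgcs1 had 53.5, 54.0 and 56.5 CPM in YWCH-4A libraries, 159.7, 176 and 158 CPM in YEXX-2A libraries and 109, 71.8 and 112 CPM in vehicle libraries. Hmgcs1 (ENSRNOG00000016552) encodes HMG-CoA synthase, and vehicle replicate 2 was its lowest vehicle library yet above all YWCH-4A libraries. It fell with YWCH-4A (log2 fold change -0.84, SE 0.14, adjusted p = 0.00116) and rose with YEXX-2A (log2 fold change 0.75, SE 0.14, adjusted p = 0.00562).

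From mevalonate to farnesyl diphosphate, 3 of 5 members (Pmvk, Mvd and Fdps) fell with YWCH-4A and 1, Idi1, rose with YEXX-2A. Among all tested genes 14.9% were called lower with YWCH-4A and 17.6% higher with YEXX-2A. Fdps had 295, 292 and 299 CPM in YWCH-4A libraries, 484, 451 and 496 CPM in YEXX-2A libraries and 473, 518 and 433 CPM in vehicle libraries. All YWCH-4A libraries were below the rest, and the YEXX-2A and vehicle libraries overlapped. Fdps fell with YWCH-4A (log2 fold change -0.68, SE 0.07, adjusted p = 4.25e-05), and with YEXX-2A its log2 fold change was 0.01 (95% interval -0.15 to 0.16). Pmvk, the phosphomevalonate kinase, averaged 21.7 ± 1.66 CPM with YWCH-4A, 33.3 ± 0.722 CPM with YEXX-2A and 31.3 ± 3.42 CPM with vehicle (mean ± SD, n = 3 each, as in all CPM averages given). Pmvk fell with YWCH-4A (log2 fold change -0.52, SE 0.10, adjusted p = 0.00256). Mvd, which decarboxylates mevalonate diphosphate, averaged 40.1 ± 2.42 CPM with YWCH-4A, 56.1 ± 2.82 CPM with YEXX-2A and 55.0 ± 9.64 CPM with vehicle. Mvd fell with YWCH-4A (log2 fold change -0.46, SE 0.12, adjusted p = 0.0121), a call lost without YWCH-4A replicate 1 or 2 (adjusted p = 0.0566 and 0.0537). Mvk, the mevalonate kinase, was called with neither compound (log2 fold change -0.20 with YWCH-4A and -0.23 with YEXX-2A). These were -0.06 and -0.07 with vehicle replicate 2 left out.

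Idi1 had 7.41, 10.6 and 6.13 CPM in YWCH-4A libraries, 26.5, 29.7 and 22.3 CPM in YEXX-2A libraries and 11.8, 5.54 and 12.1 CPM in vehicle libraries. Idi1 (ENSRNOG00000016690), the isomerase that supplies dimethylallyl diphosphate, was higher in every YEXX-2A library than in any other, while the YWCH-4A and vehicle libraries overlapped. It rose with YEXX-2A by the largest amount among the members called in that comparison (log2 fold change 1.41, SE 0.26, adjusted p = 0.00604). With YWCH-4A it was not called (log2 fold change -0.29, SE 0.28, adjusted p = 0.468). Vehicle replicate 2 was its lowest library, and without it the log2 fold change with YWCH-4A was -0.56, adjusted p = 0.0641.

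Between farnesyl diphosphate and lanosterol, Fdft1 and Sqle fell with YWCH-4A and Lss was not called. Sqle had 63.5, 66.7 and 66.3 CPM in YWCH-4A libraries, 118, 123 and 119.7 CPM in YEXX-2A libraries and 91.4, 76.4 and 93.2 CPM in vehicle libraries. The 3 groups of Sqle, the squalene epoxidase, did not overlap. Sqle fell with YWCH-4A (log2 fold change -0.41, SE 0.08, adjusted p = 0.00282) and rose with YEXX-2A (log2 fold change 0.47, SE 0.08, adjusted p = 0.00382). Fdft1, the squalene synthase, averaged 108 ± 3.47 CPM with YWCH-4A, 161 ± 10.9 CPM with YEXX-2A and 145 ± 7.85 CPM with vehicle. Fdft1 fell with YWCH-4A (log2 fold change -0.43, SE 0.07, adjusted p = 0.000959) and was not called with YEXX-2A (log2 fold change 0.15, SE 0.07, adjusted p = 0.111). It was called with YEXX-2A once vehicle replicate 2 was left out (0.17, adjusted p = 0.0305). Lss, which closes the sterol rings, averaged 105 ± 5.26 CPM with YWCH-4A, 117 ± 6.27 CPM with YEXX-2A and 105 ± 11.6 CPM with vehicle. Its 95% interval of the log2 fold change was -0.19 to 0.19 with YWCH-4A and -0.03 to 0.34 with YEXX-2A. Lss was called higher with YEXX-2A without vehicle replicate 2 (0.25, adjusted p = 0.00449).

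Cyp51, which removes a methyl group from lanosterol, opens the last stretch of the route. Cyp51 had 308, 317 and 318 CPM in YWCH-4A libraries, 886, 933 and 941 CPM in YEXX-2A libraries and 519.9, 377 and 526 CPM in vehicle libraries. The 3 groups did not overlap, and vehicle replicate 2 was the vehicle library nearest to YWCH-4A. Cyp51 fell with YWCH-4A (log2 fold change -0.59, SE 0.11, adjusted p = 0.00199) and rose with YEXX-2A (log2 fold change 0.95, SE 0.11, adjusted p = 0.00066).

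Of the other 7 members that turn lanosterol into cholesterol, 5 fell with YWCH-4A and 5 rose with YEXX-2A. Of all tested genes 14.9% were called lower with YWCH-4A and 17.6% higher with YEXX-2A. Msmo1, Nsdhl and Hsd17b7 remove the methyl groups of lanosterol. Msmo1 had 134, 132 and 134 CPM in YWCH-4A libraries, 212, 232 and 235 CPM in YEXX-2A libraries and 182, 149 and 176 CPM in vehicle libraries. Msmo1 fell with YWCH-4A (log2 fold change -0.34, SE 0.08, adjusted p = 0.00772) and rose with YEXX-2A (log2 fold change 0.42, SE 0.08, adjusted p = 0.00618), with no overlap between groups. Nsdhl averaged 26.9 ± 0.683 CPM with YWCH-4A, 41.4 ± 0.708 CPM with YEXX-2A and 31.4 ± 0.430 CPM with vehicle. It rose with YEXX-2A (log2 fold change 0.40, SE 0.07, adjusted p = 0.00467) and fell slightly with YWCH-4A (log2 fold change -0.22, SE 0.07, adjusted p = 0.0377). Hsd17b7 had 4.88, 5.60 and 5.07 CPM in YWCH-4A libraries, 12.1, 12.6 and 11.4 CPM in YEXX-2A libraries and 9.31, 7.13 and 5.61 CPM in vehicle libraries. Hsd17b7 rose with YEXX-2A (log2 fold change 0.71, SE 0.17, adjusted p = 0.0134) and fell with YWCH-4A (log2 fold change -0.51, SE 0.17, adjusted p = 0.0484), and its vehicle libraries were spread more widely than those of either compound. The fall of Nsdhl was lost without any library but vehicle replicate 2 (adjusted p = 0.056 to 0.118). That of Hsd17b7 was lost without any library but vehicle replicate 2 or 3 (adjusted p = 0.0666 to 0.193), and without vehicle replicate 1 it was -0.29. With YEXX-2A replicate 2 left out the rise of Hsd17b7 missed the threshold (adjusted p = 0.0593).

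Tm7sf2, a sterol reductase, averaged 17.0 ± 1.04 CPM with YWCH-4A, 30.1 ± 1.74 CPM with YEXX-2A and 23.95 ± 2.37 CPM with vehicle. It fell with YWCH-4A (log2 fold change -0.50, SE 0.10, adjusted p = 0.00387) and rose with YEXX-2A (log2 fold change 0.33, SE 0.10, adjusted p = 0.0295). That rise was lost without any one library but vehicle replicate 2 and YWCH-4A replicate 2 (adjusted p = 0.0533 to 0.0814). Sc5d, a sterol desaturase near the end of the route, had 62.9, 60.4 and 60.7 CPM in YWCH-4A libraries, 96.3, 104 and 102 CPM in YEXX-2A libraries and 74.7, 51.2 and 80.0 CPM in vehicle libraries. Its YEXX-2A libraries were above all others, and vehicle replicate 2 was below every YWCH-4A library. Sc5d rose with YEXX-2A (log2 fold change 0.55, SE 0.13, adjusted p = 0.0143), although it missed the threshold once YEXX-2A replicate 2 was left out (adjusted p = 0.0587), and was not called with YWCH-4A (log2 fold change -0.16, SE 0.13, adjusted p = 0.384). A fit without vehicle replicate 2 called it lower with YWCH-4A (-0.33, adjusted p = 0.000151). Dhcr7 had 133, 127 and 136 CPM in YWCH-4A libraries, 179, 169 and 194 CPM in YEXX-2A libraries and 188, 230.4 and 181 CPM in vehicle libraries. Dhcr7, a reductase of the last steps, fell with YWCH-4A with no overlap (log2 fold change -0.59, SE 0.09, adjusted p = 0.00074) and was not called with YEXX-2A (log2 fold change -0.14, SE 0.09, adjusted p = 0.229). Ebp, a sterol isomerase, stayed between 20.5 and 23.4 CPM in all 9 libraries and was called with neither compound.

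Among the regulators, Insig1, which holds SCAP back and is itself a known SREBP target, separated the compounds. Insig1 had 99.0, 103 and 109 CPM in YWCH-4A libraries, 221, 225 and 226 CPM in YEXX-2A libraries and 138, 105 and 159 CPM in vehicle libraries. All YEXX-2A libraries were above the rest, and YWCH-4A replicate 3 overlapped vehicle replicate 2. Insig1 rose with YEXX-2A (log2 fold change 0.74, SE 0.12, adjusted p = 0.00335) and fell with YWCH-4A (log2 fold change -0.37, SE 0.12, adjusted p = 0.0383). The fall was lost without any library but vehicle replicate 2 (adjusted p = 0.0522 to 0.119), and without that one it was -0.52, adjusted p = 8.97e-07. Leaving out vehicle replicate 3 gave -0.24. Srebf2 had 276, 273 and 284 CPM in YWCH-4A libraries, 291, 288 and 314 CPM in YEXX-2A libraries and 312, 388 and 317 CPM in vehicle libraries. Srebf2 fell slightly with YWCH-4A (log2 fold change -0.29, SE 0.08, adjusted p = 0.0247), a call lost without YWCH-4A replicate 1, 2 or 3 (adjusted p = 0.0608 to 0.0922), and was not called with YEXX-2A (log2 fold change -0.19, SE 0.08, adjusted p = 0.096). Without vehicle replicate 2, its highest library, the log2 fold change with YWCH-4A was -0.18, adjusted p = 0.00514.

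Scap averaged 176 ± 4.81 CPM with YWCH-4A, 166 ± 6.42 CPM with YEXX-2A and 191 ± 37.1 CPM with vehicle, and was called with neither compound (log2 fold change -0.12 and -0.21). Vehicle replicate 2 was its highest library, at 234 CPM, and without it the values were 0.05 with YWCH-4A and -0.04 with YEXX-2A. Without vehicle replicate 3 Scap was called lower with YEXX-2A (log2 fold change -0.30, adjusted p = 0.0401). Stard4, a cholesterol transfer protein, averaged 19.99 ± 2.08 CPM with YWCH-4A, 26.4 ± 0.877 CPM with YEXX-2A and 18.4 ± 2.82 CPM with vehicle. It rose with YEXX-2A (log2 fold change 0.52, SE 0.12, adjusted p = 0.0139), which missed the threshold once YEXX-2A replicate 1 was left out (adjusted p = 0.0523). With YWCH-4A its log2 fold change was 0.12.

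**Figure D4:**
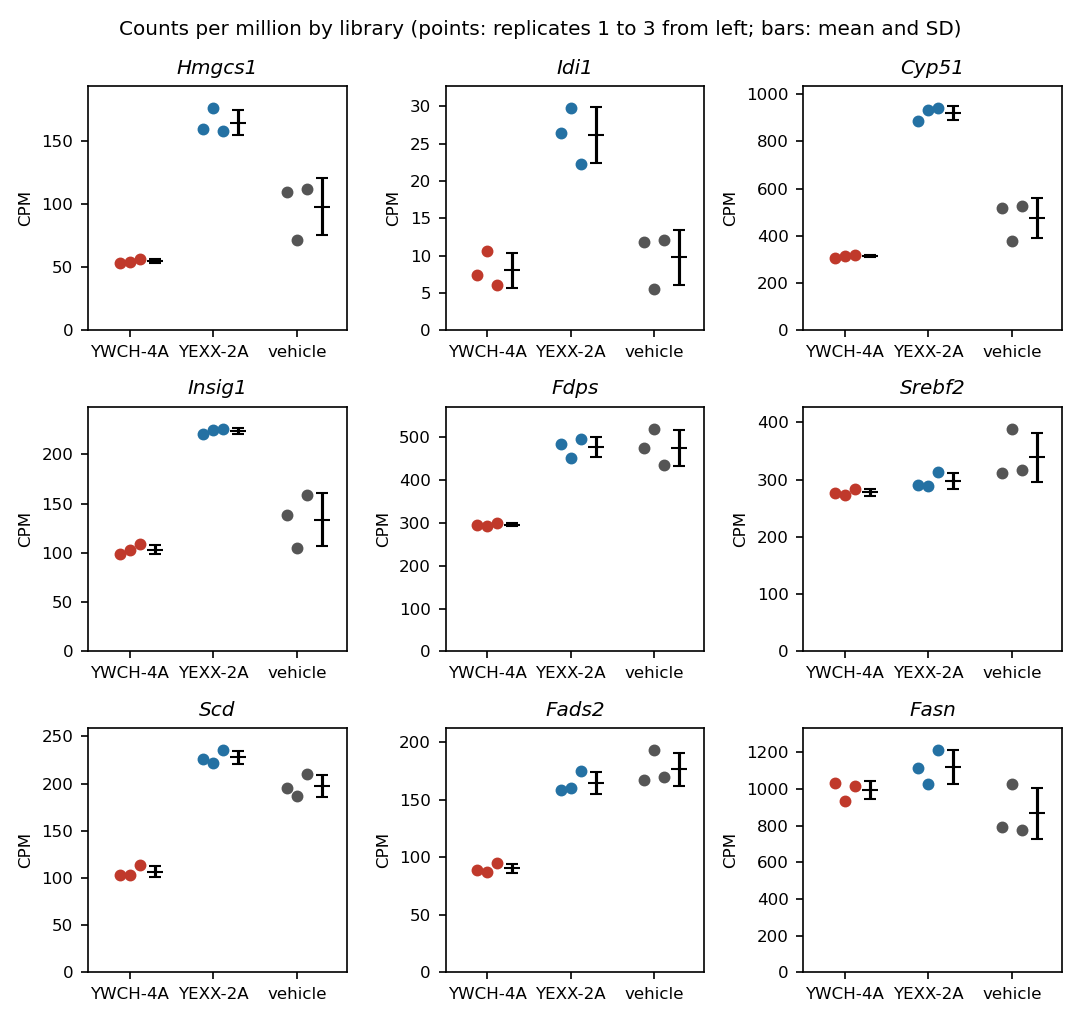
CPM of 9 members in each library (points, replicates 1 to 3 from left to right) with the group mean and SD (black), for YWCH-4A, YEXX-2A and vehicle; each axis starts at 0. For Hmgcs1 and Cyp51 the groups part in 3 levels, while for Fdps and Fads2 the YWCH-4A libraries alone stand below overlapping YEXX-2A and vehicle libraries.

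In fatty acid synthesis the 5 called falls with YWCH-4A lay in acetyl-CoA supply and desaturation. With YEXX-2A 4 of 9 members were called, against 36.1% of all tested genes, so no pattern by step is read from them. The 3 rises were those of Acaca, Fasn and Scd, and only that of Acaca held in all 20 alternatives that keep the threshold of 0.05. Acly had 337, 323 and 329.7 CPM in YWCH-4A libraries, 429, 426 and 457 CPM in YEXX-2A libraries and 413, 419.6 and 411 CPM in vehicle libraries. Acly, which makes cytosolic acetyl-CoA from citrate, fell with YWCH-4A with no overlap (log2 fold change -0.33, SE 0.05, adjusted p = 0.00105). Acss2 had 35.0, 32.6 and 30.3 CPM in YWCH-4A libraries, 58.7, 53.0 and 62.2 CPM in YEXX-2A libraries and 52.3, 61.5 and 52.0 CPM in vehicle libraries. Acss2, which makes acetyl-CoA from acetate, also fell with YWCH-4A with no overlap (log2 fold change -0.76, SE 0.10, adjusted p = 0.00018). With YEXX-2A neither was called (log2 fold change 0.08 for Acly and 0.07 for Acss2).

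Acaca had 104, 96.4 and 101 CPM in YWCH-4A libraries, 133, 119 and 132 CPM in YEXX-2A libraries and 102, 106 and 97.1 CPM in vehicle libraries. Acaca, which makes malonyl-CoA, rose with YEXX-2A with no overlap (log2 fold change 0.33, SE 0.07, adjusted p = 0.00888) and was not called with YWCH-4A (log2 fold change -0.02, 95% interval -0.17 to 0.14). Fasn had 1030.5, 937 and 1016 CPM in YWCH-4A libraries, 1117, 1025 and 1212 CPM in YEXX-2A libraries and 795, 1029.5 and 779 CPM in vehicle libraries. Fasn, the synthase itself, overlapped between groups through vehicle replicate 2, the highest vehicle library. It rose with YEXX-2A (log2 fold change 0.37, SE 0.11, adjusted p = 0.0269) and was not called with YWCH-4A (log2 fold change 0.20, SE 0.11, adjusted p = 0.192). The rise was lost without vehicle replicate 1 or 3, any 1 YEXX-2A library or YWCH-4A replicate 1 (adjusted p = 0.0501 to 0.0769). With vehicle replicate 2 left out, Fasn was called higher with YWCH-4A as well (0.34, adjusted p = 0.000442).

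Fads2 and Scd, both desaturases, gave the largest falls of the fatty acid members. Scd had 103, 103 and 114 CPM in YWCH-4A libraries, 226, 222 and 235 CPM in YEXX-2A libraries and 195, 187 and 209.6 CPM in vehicle libraries. Scd (ENSRNOG00000013552), which puts the first double bond into saturated fatty acids, had 3 groups without overlap. It fell with YWCH-4A (log2 fold change -0.89, SE 0.07, adjusted p = 3.41e-06) and rose with YEXX-2A (log2 fold change 0.21, SE 0.07, adjusted p = 0.0347), the rise being lost without vehicle replicate 1, any 1 YEXX-2A library, or YWCH-4A replicate 1 or 2 (adjusted p = 0.0586 to 0.0901). Scd has a close paralogue, Scd2, and reads may have been shared between them by the counting. Fads2 had 89.3, 87.1 and 94.8 CPM in YWCH-4A libraries, 158, 159.7 and 175 CPM in YEXX-2A libraries and 167, 193 and 169 CPM in vehicle libraries. Fads2 (ENSRNOG00000020440), the first desaturase of polyunsaturated fatty acids, fell with YWCH-4A (log2 fold change -0.96, SE 0.08, adjusted p = 4.36e-06), and the YEXX-2A and vehicle libraries overlapped. This was the largest fall of all members, but without vehicle replicate 2 it was -0.90, against -0.92 for Scd and -1.02 for Hmgcs1. Fads1, a later desaturase of the same route, averaged 279 ± 8.75 CPM with YWCH-4A, 351 ± 17.5 CPM with YEXX-2A and 360.0 ± 27.0 CPM with vehicle, and fell with YWCH-4A (log2 fold change -0.37, SE 0.07, adjusted p = 0.00229). With YEXX-2A neither Fads gene was called (log2 fold change -0.10 for Fads2 and -0.04 for Fads1).

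Elovl6, an elongase of saturated chains, was low, between 0.716 and 2.85 CPM, and its 95% interval was wide (-0.69 to 1.16 with YWCH-4A and -0.19 to 1.62 with YEXX-2A). Without vehicle replicate 3 it was called higher with YEXX-2A (log2 fold change 1.36, adjusted p = 0.0194). Srebf1 had 107, 106 and 110.5 CPM in YWCH-4A libraries, 88.1, 88.2 and 94.8 CPM in YEXX-2A libraries and 109.7, 147 and 108 CPM in vehicle libraries. Srebf1 fell with YEXX-2A (log2 fold change -0.43, SE 0.11, adjusted p = 0.0165), the only member called lower there, while the YWCH-4A and vehicle libraries overlapped (log2 fold change -0.18, SE 0.11, adjusted p = 0.241). Without vehicle replicate 2, its highest library, the log2 fold change with YEXX-2A was -0.27, adjusted p = 0.000807. The call did not hold with YEXX-2A replicate 1 or 2 left out (adjusted p = 0.0604 and 0.0698), nor with only the YEXX-2A and vehicle groups fitted (adjusted p = 0.0576).

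The compounds were then compared directly, as the single pair in the series, which does not involve the vehicle values except through the shared spread. With YWCH-4A against YEXX-2A, 17 of 22 cholesterol members and 6 of 9 fatty acid members were lower and none was higher. Over all tested genes 31.3% were called, 16.2% higher and 15.1% lower, and their median log2 fold change was near 0. The medians were -0.65 for the cholesterol members and -0.40 for the fatty acid members. All 3 YWCH-4A libraries lay below all 3 YEXX-2A libraries for 25 members and above them for Scap and Srebf1, against 29.1% of tested genes lying below and 29.9% above. Without vehicle replicate 2 in the fit, 18 cholesterol members and 7 fatty acid members were lower and 1, Srebf1, was higher. The same fit called 6001 of 11640 tested genes, 2959 higher and 3042 lower.

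The largest differences were those of Idi1 (log2 fold change -1.70, SE 0.26, adjusted p = 0.000773), Hmgcs1 (log2 fold change -1.59, SE 0.14, adjusted p = 1.41e-05) and Cyp51 (log2 fold change -1.55, SE 0.11, adjusted p = 2.51e-06). Next came Hsd17b7 (-1.22), Insig1 (-1.11) and Scd (-1.10), the members whose promoter windows are printed above together with Fads2 (-0.86). Acat2 (-0.92), Sqle (-0.88), Tm7sf2 (-0.83), Acss2 (-0.83) and Msmo1 (-0.76) followed. The smallest called difference was that of Fads1 (log2 fold change -0.33, SE 0.07, adjusted p = 0.00468). Of the 23 called members, 22 were called in all 20 alternatives that keep the threshold of 0.05. Stard4 (log2 fold change -0.40, SE 0.12, adjusted p = 0.0288) was not, its call being lost without any 1 YEXX-2A library or YWCH-4A replicate 2 or 3 (adjusted p = 0.0604 to 0.118), and on log2 FPKM (adjusted p = 0.107 with a pseudocount of 1 and 0.117 with 0.1). Hsd17b7 was -0.75 on log2(FPKM + 1).

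Not called between the compounds were 8 members, which does not show that the compounds act alike on them. The 95% interval of the log2 difference was -0.28 to 0.32 for Mvk, -0.29 to 0.08 for Ebp, -0.16 to 0.33 for Scap and -0.28 to 0.09 for Srebf2. It was -0.35 to 0.03 for Lss, -0.41 to 0.07 for Fasn and -1.33 to 0.37 for Elovl6. Srebf1 was 0.25 (interval 0.02 to 0.49, adjusted p = 0.0979). With vehicle replicate 2 left out of the fit, Lss (-0.16, adjusted p = 0.0159), Fasn (-0.17, adjusted p = 0.018) and Srebf1 (0.25, adjusted p = 0.000172) were called. The main estimates of Srebf2, Srebf1 and Scap lay between -0.10 and 0.25 on the log2 scale, and that of Insig1 at -1.11. With the library score as covariate in the edgeR fit, Srebf2 was called lower (-0.20, adjusted p = 1.76e-05) and Srebf1 higher (0.11, adjusted p = 0.037).

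**Figure D5:**
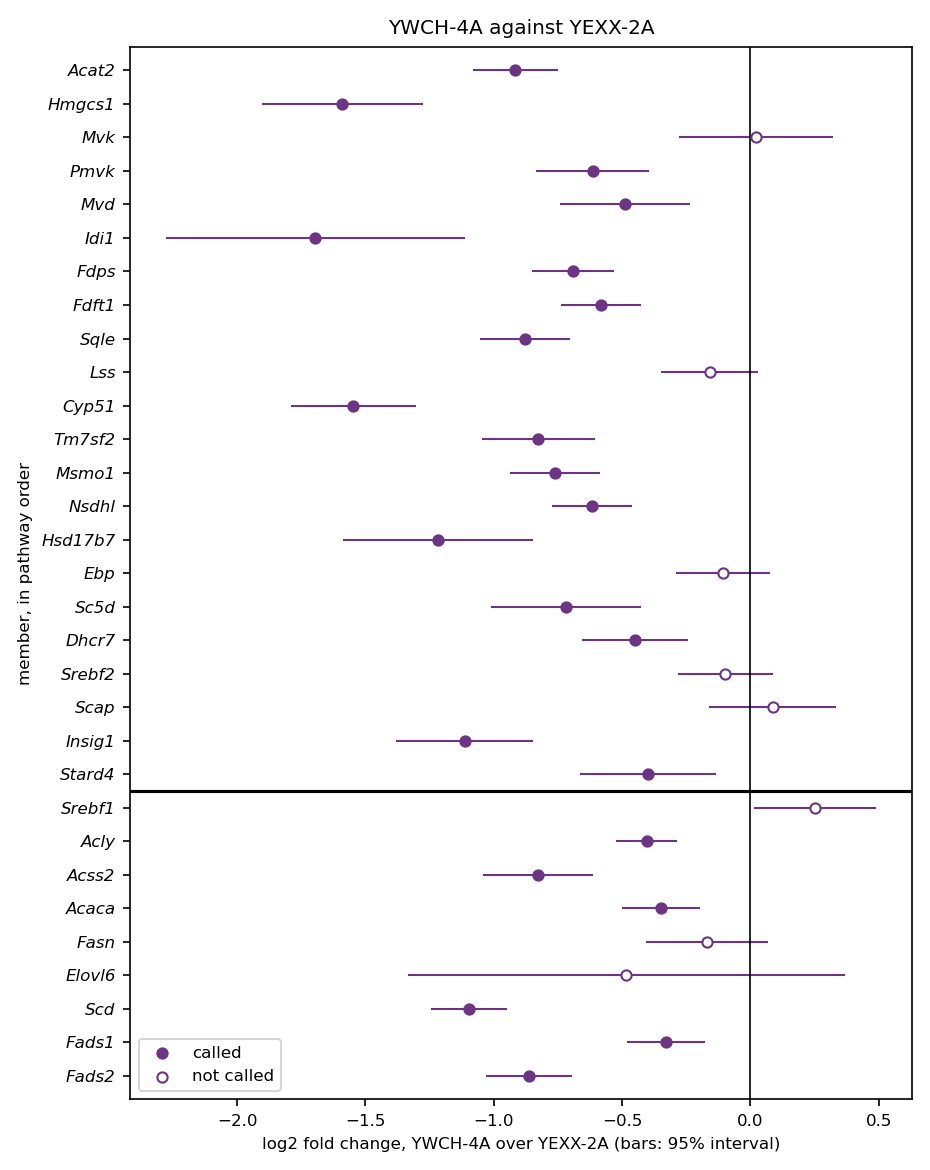
Log2 fold change of each member with YWCH-4A over YEXX-2A with its 95% interval, members in pathway order; filled points were called and the line parts cholesterol members (above) from fatty acid members (below). All 23 called members lie below 0, from -1.70 for Idi1 to -0.33 for Fads1.

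Krt8 and several fibroblast markers differed across the same groups. Summed fibroblast markers, carried by Col1a1, Col3a1 and Vim, ranged from 10638 to 11557 CPM in YWCH-4A libraries, from 32339 to 35595 CPM in YEXX-2A libraries and from 42963 to 55894 CPM in vehicle libraries. Other markers of the list had another order. Pdgfra averaged 292 ± 5.57 CPM with YWCH-4A, 184 ± 4.06 CPM with YEXX-2A and 180.1 ± 20.6 CPM with vehicle. S100a4 averaged 333 ± 11.8 CPM with YWCH-4A, 329.7 ± 30.5 CPM with YEXX-2A and 284 ± 30.2 CPM with vehicle, and Pdgfrb 170.2 ± 8.89 CPM with YWCH-4A, 107 ± 4.36 CPM with YEXX-2A and 162 ± 20.8 CPM with vehicle. Summed epithelial markers, almost all Krt8, ranged from 896 to 945 CPM with YWCH-4A, from 1482 to 1567 CPM with YEXX-2A and from 1713 to 2202 CPM with vehicle. The part of these markers in the members' values was not tested.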

How the data were processed

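The deposited gene table gives, per the file headers, a count column and an FPKM column for each library. The count values are estimated counts as deposited, of which 8.87% of those above 0 were not whole; FPKM values are the authors' own, scaled to transcript length and depth. Libraries were made with oligo(dT) selection and an NEBNext Ultra kit, per the labels' protocols. The submitters' processing notes list StringTie 1.3.1, RSEM, DESeq2 and edgeR, without their roles. The aligner, the build, the annotation and strand handling are not given in the sources used here, so reads of overlapping antisense genes cannot be told apart.

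Counts were rounded to whole numbers, filtered with filterByExpr (minimum count 10) and scaled with TMM factors. Comparisons used edgeR 4.0.16 (R 4.3.3), a robust quasi-likelihood fit of the 3 groups taken from the treatment labels. P-values are two-sided and Benjamini-Hochberg adjusted over 11473 genes. A standard error is the absolute log2 fold change divided by the square root of F. Depth, 13675880 to 21923706 counts per library, limits mainly Elovl6, Hsd17b7 and Idi1.

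The alternatives were other size factors and filters, DESeq2 1.42.0, limma 3.58.1 (voom, or trend on log2 FPKM plus 1 or 0.1), the compared groups alone, a replicate block, a library score, an adjusted p under 0.01 and leaving out each library. Near matches to the sterol element were added after seeing the data. At least 13098 genes differed in value between any pair of libraries. Members, lists and tests were chosen with earlier results of these data known. All members are named. Of the other pathway genes, those with the largest called change per list and comparison are, at most 2 each.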

Additional observations from a re-analysis of the deposited data

How the results depend on the processing

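Over 620 values per comparison (31 members in the 20 alternatives that keep the threshold of 0.05), direction and side of the threshold held for 560 with YEXX-2A against vehicle, 538 with YWCH-4A against vehicle and 595 between the compounds. Genes called with YEXX-2A numbered 4145, against 1408 with the compared groups alone, 2328 with the library score and 906 at an adjusted p under 0.01, and fatty acid members 4, against 1 with the compared groups alone and 1 at an adjusted p under 0.01. With YWCH-4A 3516 genes were called, against 5673 with the score and 2184 at an adjusted p under 0.01, and 15 cholesterol members, against 8 with FPKM plus either pseudocount. Those FPKM fits called 4700 genes with a pseudocount of 1 (1030 of them lower) and 4631 with 0.1 (1027 lower). Between the compounds 3593 genes were called, against 5903 with those groups alone and 1994 at an adjusted p under 0.01. Exact sterol elements were in 0 members and near matches in 12. Leaving out 1 library gave 1044 to 5308 genes with YEXX-2A (9 to 14 cholesterol and 1 to 4 fatty acid members), 2450 to 4588 with YWCH-4A (10 to 16 and 5 to 6) and 2225 to 6001 between the compounds (16 to 18 and 6 to 8). Called in all 20 alternatives were 8 of 12 cholesterol and 1 of 4 fatty acid members with YEXX-2A, 8 of 15 and 5 of 5 with YWCH-4A, and 16 of 17 and 6 of 6 between the compounds. FPKM fits ended the YWCH-4A calls of Mvd, Sqle, Msmo1, Nsdhl, Hsd17b7, Srebf2 and Insig1, and the block and the compared groups alone ended those of Nsdhl, Hsd17b7, Srebf2 and Insig1 with YWCH-4A and of Tm7sf2, Fasn and Scd with YEXX-2A. The compared groups alone also ended that of Srebf1 with YEXX-2A, the block and FPKM fits that of Stard4 between the compounds, no filter those of Nsdhl and Hsd17b7 with YWCH-4A, and voom that of Hsd17b7. FPKM fits added calls of Fasn (higher with YWCH-4A), Fdft1 and Acly (higher with YEXX-2A) and Srebf1 (higher with YWCH-4A over YEXX-2A). The library score added Fasn (higher), Idi1 and Sc5d (lower) with YWCH-4A, and Acss2, Mvd, Fdps, Fdft1 and Lss (higher) with YEXX-2A. Between the compounds the score added Lss, Fasn and Srebf2 (lower) and Srebf1 (higher). The compared groups alone added Lss, Fasn and Srebf1 there, in the same directions. FPKM moved the median of all genes with YWCH-4A against vehicle to 0.18 or 0.21 (pseudocount 1 or 0.1), and the cause of the other shifts was not tested.

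Nothing in the labels says that replicate numbers pair the samples. Correlations of same-numbered deviations from the group means were -0.27 to 0.08. They cannot exclude pairing, since each group has 3 libraries and vehicle replicate 2 stood apart. With the replicate block, 1931 genes, 11 cholesterol and 2 fatty acid members were called with YEXX-2A, 2787, 11 and 5 with YWCH-4A, and 2612, 16 and 6 between the compounds.

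Members that were not called changed sign as follows, in log2 fold change. With DESeq2 size factors the values were Fdps -0.0096 (YEXX-2A). With the DESeq2 Wald test the values were Fdps -0.0102 (YEXX-2A). With the library score the values were Dhcr7 0.0625 (YEXX-2A), Scap 0.0674 (YEXX-2A), Fads1 0.082 (YEXX-2A), Fads2 0.0259 (YEXX-2A), Lss 0.0676 (YWCH-4A), Scap 0.0036 (YWCH-4A), Acaca 0.0135 (YWCH-4A), Mvk -0.0963 (YWCH-4A over YEXX-2A) and Scap -0.0638 (YWCH-4A over YEXX-2A). With limma on log2 FPKM plus 1 the values were Fads1 0.0467 (YEXX-2A), Lss 0.12 (YWCH-4A), Ebp 0.13 (YWCH-4A), Sc5d 0.034 (YWCH-4A), Scap 0.0699 (YWCH-4A), Srebf1 0.0118 (YWCH-4A), Acaca 0.15 (YWCH-4A) and Lss 0.0478 (YWCH-4A over YEXX-2A). With limma on log2 FPKM plus 0.1 the values were Fads1 0.0471 (YEXX-2A), Lss 0.12 (YWCH-4A), Ebp 0.13 (YWCH-4A), Sc5d 0.0388 (YWCH-4A), Scap 0.0716 (YWCH-4A), Srebf1 0.0125 (YWCH-4A), Acaca 0.16 (YWCH-4A) and Lss 0.0482 (YWCH-4A over YEXX-2A). With limma-voom the values were Lss 0.0018 (YWCH-4A). With 1 library left out the ranges were Mvd -0.0826 to 0.17 (YEXX-2A), Fdps -0.0564 to 0.0718 (YEXX-2A), Fads1 -0.0794 to 0.023 (YEXX-2A), Lss -0.0647 to 0.0877 (YWCH-4A), Scap -0.22 to 0.0481 (YWCH-4A), Acaca -0.051 to 0.0115 (YWCH-4A), Elovl6 -0.0898 to 0.88 (YWCH-4A) and Mvk -0.0525 to 0.0805 (YWCH-4A over YEXX-2A).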

Other observations

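Genes around the routes, taken from lists of 58 neighbours chosen with earlier results known, were read in the same edgeR quasi-likelihood fit, and 54 were tested. With YWCH-4A against vehicle 9 rose and 11 fell, with YEXX-2A against vehicle 9 rose and 11 fell, and with YWCH-4A against YEXX-2A 12 were higher and 10 lower. Of all tested genes 30.6%, 36.1% and 31.3% were called in the same comparisons. Without vehicle replicate 2 the direct comparison called 35 of 54, with 17 higher and 18 lower. Calls rose over the whole transcriptome in that fit, to 6001 of 11640 tested genes, 2959 higher and 3042 lower.

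With YWCH-4A, Fntb, a subunit of protein farnesyltransferase, fell (log2 fold change -1.43, SE 0.09, adjusted p = 1.02e-06). Mylip, a ubiquitin ligase for lipoprotein receptors, rose (0.99, SE 0.16, adjusted p = 0.00101). Lipa, the lysosomal acid lipase, rose (0.99, SE 0.07, adjusted p = 1.96e-06), as did Npc1, which exports lysosomal cholesterol (0.46), and Erlin2, an endoplasmic reticulum protein (0.64). Falls were seen for Scd2 (-0.87), Fads3 (-0.93), Me1, a source of NADPH (-0.73), Aacs (-0.48), Dgat2 (-0.61) and Agpat2 (-0.43). Each of these calls held in all 20 alternatives that keep the threshold of 0.05.

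With YEXX-2A, Acsl3 and Acsl5, which activate fatty acids, rose (0.85 and 0.57), as did Hsd17b12 of the elongation cycle (0.53). Gramd1b and Gramd1a, which carry sterols between membranes, fell (-0.75 and -0.42), and so did Plin2, a lipid droplet coat protein (-0.53). These 6 calls held in the same 20 alternatives, although at an adjusted p under 0.01 Gramd1a would miss (adjusted p = 0.0103). Those of Pdss1 (0.57), Coq2 (-0.40), Mbtps2 (0.57), Erlin1 (0.33), Fads3 (-0.31), Slc25a1 (-0.30) and Dgat2 (-0.62) did not. Pdss1 missed the threshold without vehicle replicate 2 (adjusted p = 0.0884), and the log2 fold change was then -0.14 for Slc25a1, 0.19 for Erlin1 and -0.26 for Coq2.

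Between the compounds, YWCH-4A libraries were higher than YEXX-2A libraries for Mylip (1.32), Gramd1b (1.00), Plin2 (0.88), Npc1 (0.72) and Erlin2 (0.47). They were lower for Fntb (-1.27), Me1 (-0.82), Pdss1 (-0.77), Acsl4 (-0.76), Aacs (-0.72), Scd2 (-0.66) and Fads3 (-0.62). Slc27a1 was higher (0.43), a call that held in 15 of 20 alternatives.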
